A study of Mus musculus with 2 samples.

Results

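NF-κB is a family of transcription factors made from 5 subunit genes and held in check by a set of inhibitors, and 10 of these genes were followed: the subunit genes Nfkb1, Nfkb2, Rela, Relb and Rel and the inhibitor genes Nfkbia, Nfkbib, Nfkbie, Nfkbiz and Tnfaip3. They were chosen by name, for their place in the pathway and with earlier results of these data known, from the 49492 genes of the count table. All 10 passed the filter of at least 10 reads summed over both libraries, which left 19233 genes to be tested. The cells put into culture were basal cells of the mammary epithelium, sorted as CD24+CD29hi from wild-type female mice 8 to 10 weeks old. They grew in a 3D matrix gel in medium with 50 ng/mL EGF. In one library they were cultured alone (ctrl, no treatment). In the other (M2) the wells also held macrophages, grown from bone marrow of C57/B6 mice, polarised with 20 ng/mL IL-4 and 20 ng/mL IL-13, held apart in a porous insert and renewed every 2 days. The methods give 11 to 14 days for the co-culture and a range that begins earlier for colonies grown alone. The day of harvest of either library is not given, so a difference in culture time and the co-culture cannot be told apart. Each group is 1 library, so no difference below has a replicate check, and animals or wells that were pooled into a library cannot be separated.

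NF-κB subunits work as pairs, and in resting cells the IκB proteins keep many of these pairs in the cytoplasm. Signals from TNF, IL-1 or Toll-like receptors switch on the IKK kinases, IκB is degraded, and the released pairs bind κB sites in the genome. Several inhibitor genes are themselves targets of the pathway in many cell types, which makes a negative feedback, and a slower alternative arm runs through Nfkb2 and Relb. Because most of this control acts on proteins, counts of mRNA do not measure how active the factor was.

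The ctrl library held 26912610 reads in genes and the M2 library 29413844, of which mitochondrial genes took 4.83% and 4.11%. Values are given as reads, as CPM (reads per 1000000 reads of the library, scaled by TMM), and as the log2 fold difference of M2 over ctrl with a 95% Clopper-Pearson interval that covers counting error only. A call needed at least a 2-fold difference and an adjusted p under 0.05 in the exact binomial test, which compares these libraries and not the conditions. Over the genes tested the log2 fold difference had a median of -0.0032 and quartiles of -0.32 and 0.35.

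Of the 10 genes, 3 were called higher in the M2 library, all of them inhibitors: Tnfaip3 by 5.59-fold, Nfkbie by 2.77-fold and Nfkbiz by 2.54-fold. None of the 5 subunit genes was called, and 0 of the 10 genes was called lower. Among all genes tested, 8.16% were called higher and 6.55% lower. At a 1.5-fold threshold 7 of the 10 genes were called higher, 3 subunits and 4 inhibitors, beside 12.8% of all genes, and 0 were called lower, beside 11.1%. The median log2 fold difference of the 10 genes was 0.87, and 7 of them lay above the upper quartile of all genes. With any size of difference allowed, 9 of the 10 genes had more reads in M2 and 1, Rela, had fewer, but 27% and 26.1% of all genes passed the test in those directions too.

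**Figure D1:**
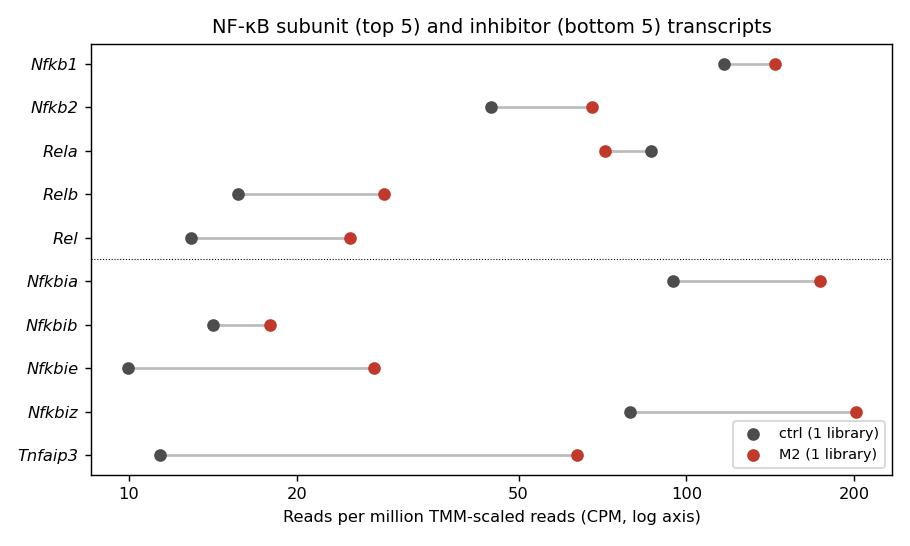
Level of each of the 10 genes in the ctrl and the M2 library, in CPM on a log axis. Each group is 1 library, and a grey line joins the points of a gene. The 5 inhibitors and 4 of the 5 subunits sit higher in M2, and Rela sits lower, at 86.4 CPM in ctrl and 71.4 CPM in M2.

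Promoter sequences are shown first for the genes whose windows held a match to the κB consensus, the motif by which NF-κB pairs are known to bind DNA. The consensus, 10 bases long, was searched on both strands in the windows that RefSeq start sites give, from 250 bases before to 50 after the start, on GRCm38.p6. Of the 10 genes, 7 had a window in the table used (Nfkb2, Rela, Rel, Nfkbia, Nfkbib, Nfkbie and Tnfaip3), and 5 of these held a match. The matches are in capitals, 1 further match of Nfkb2, which lies in an exon, is not printed, and each sequence reads 5′ to 3′ on the strand of its gene.
Nfkb2, first start site (chr19:46304678-46304736, + strand): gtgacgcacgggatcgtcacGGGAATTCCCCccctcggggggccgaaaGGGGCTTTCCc
Nfkb2, before another start site (chr19:46305445-46305488, + strand): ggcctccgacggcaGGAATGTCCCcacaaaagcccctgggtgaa
Rel (chr11:23771031-23771081, - strand): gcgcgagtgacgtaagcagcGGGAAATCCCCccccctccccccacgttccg
Nfkbia (chr12:55492648-55492696, - strand): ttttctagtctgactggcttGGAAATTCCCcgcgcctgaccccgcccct
Nfkbie (chr17:45555574-45555623, + strand): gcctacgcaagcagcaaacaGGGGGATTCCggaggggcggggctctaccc
Tnfaip3, farther match (chr10:19015516-19015545, - strand): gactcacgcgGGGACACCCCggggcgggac
Tnfaip3, nearer match (chr10:19015411-19015440, - strand): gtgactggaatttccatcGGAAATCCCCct

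In Nfkb2 and Rel the capitals run to 11 bases, because matches on opposite strands overlap by all but 1 base. The match of Nfkbia ends 20 bases before the start site and that of Nfkbie 97 bases before it, and the pair in Tnfaip3 ends 116 and 3 bases before the first of its start sites. By the span of Tnfaip3 in the count table, which begins upstream of that RefSeq site, both matches lie inside the gene but outside its exons. The windows of Rela and Nfkbib held no match, which says only that these letters are not in those windows. A match was found for 9.55% of all 27025 genes with a window and for 12.4% of the 11817 of them that were tested here. By call, the share was 16.3% of 975 genes called higher, 12.8% of 724 called lower and 12.0% of 10118 not called. Genes with several start sites, such as Nfkb2 with 3 and Tnfaip3 with 2, have more sequence searched, and base composition was not matched in these shares. A match is a description of the sequence, and binding was not measured.

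**Figure D2:**
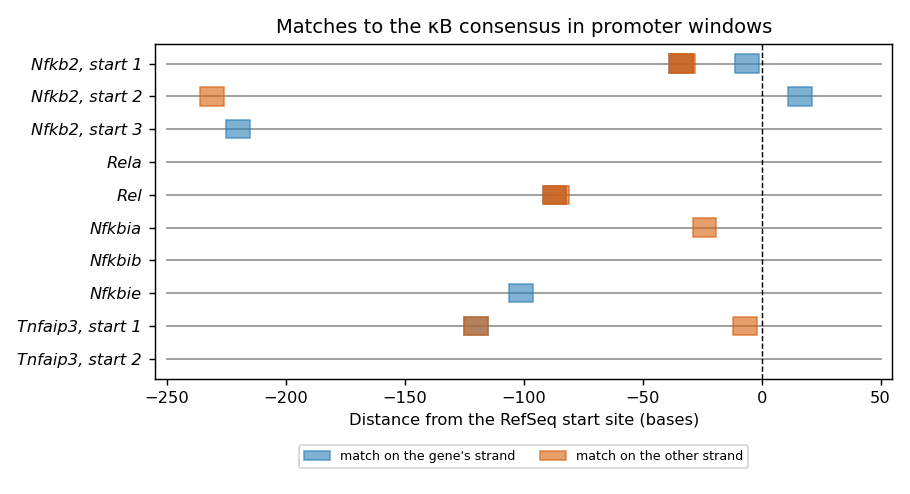
Position of each match to the κB consensus in the promoter windows of the 7 genes, as the distance from the RefSeq start site in bases, with 1 line a start site and colours for the strand of the match. Matches lie in the windows of 5 genes, and Rela, Nfkbib and one start site of Tnfaip3 have none.

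Among the subunits, Nfkb1 encodes a precursor that is processed to a DNA-binding subunit without an activation domain of its own. It lies at chr3:135584655-135691547 on the - strand, and reads were counted over its exons, as for every gene here. It had 3209 reads (117 CPM) in ctrl and 4157 (144 CPM) in M2, a log2 fold difference of 0.30 (0.24 to 0.37). That value lies inside the quartiles of all genes, and 27.1% of the genes tested had a higher one.

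Nfkb2 (chr19:46304737-46312090, + strand) encodes the precursor that is processed in the alternative arm. It had 1224 reads (44.6 CPM) in ctrl and 1953 (67.8 CPM) in M2, a log2 fold difference of 0.60 (0.50 to 0.71). The difference was larger than for Nfkb1: the ratio of Nfkb2 to Nfkb1 reads was 0.381 in ctrl beside 0.470 in M2, so its log2 change was 0.30 with a 95% exact interval of 0.18 to 0.42. Nfkb2 shares 4 exon bases with Psd on the opposite strand, a gene with 144 and 211 reads.

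Rela (chr19:5637483-5648130, + strand) encodes the subunit with a strong activation domain that is found in the most studied NF-κB pair. Its reads were 2374 (86.4 CPM) in ctrl and 2058 (71.4 CPM) in M2, a log2 fold difference of -0.28 (-0.36 to -0.19). It was the only one of the 10 genes with a lower level in M2, and 72.1% of the genes tested had a higher value. Under the scalings tried its value ran from -0.34 to -0.27, so its sign did not turn.

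Relb (chr7:19606217-19629438, - strand) encodes the usual partner of the Nfkb2 product. It had 430 reads (15.7 CPM) in ctrl and 826 (28.7 CPM) in M2, a log2 fold difference of 0.87 (0.70 to 1.04). Rel (chr11:23736847-23770970, - strand), best known as a subunit of lymphocytes and other blood cells, had 355 reads (12.9 CPM) in ctrl and 719 (24.9 CPM) in M2, a log2 fold difference of 0.95 (0.76 to 1.14). Both missed the 2-fold threshold, and both intervals reach past it, so counting error alone does not place them on one side. About 1 in 10 genes tested lay higher, 11.2% for Relb and 10.1% for Rel.

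Set against Rela within the same library, which needs no scaling, both had a larger ratio in M2. The ratio of Relb to Rela reads was 0.181 in ctrl and 0.401 in M2 (log2 change 1.15, 95% interval 0.96 to 1.34). The ratio of Rel to Rela was 0.150 and 0.349 (log2 change 1.22, 1.02 to 1.43). These intervals exclude 0, and in each ratio the change comes from more reads of the first gene together with fewer of Rela.

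Among the inhibitors, Nfkbia (chr12:55489411-55492647, - strand) encodes IκBα, the inhibitor that is degraded and made again in each round of signalling. It had 2600 reads (94.7 CPM) in ctrl and 5007 (174 CPM) in M2, a log2 fold difference of 0.88 (0.81 to 0.95). The whole interval lies under the 2-fold threshold and above the 1.5-fold one, so Nfkbia was not called at 2-fold, and 11.2% of the genes tested had a higher value. Its ratio to Rela was 1.10 in ctrl beside 2.43 in M2 (log2 change 1.15, 1.04 to 1.26).

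Nfkbib (chr7:28758251-28767512, - strand) encodes IκBβ, another cytoplasmic inhibitor, and Nfkbie encodes IκBε. Nfkbib had 388 reads (14.1 CPM) in ctrl and 515 (17.9 CPM) in M2, a log2 fold difference of 0.34 (0.15 to 0.53), which lies between the quartiles of all genes. The ratio of Nfkbib to Nfkbia was lower in M2, 0.103 beside 0.149 in ctrl (log2 change -0.54, -0.74 to -0.33). Of the exon bases of Nfkbib, 14.5% overlap Ccer2 (3 and 20 reads) and 1.94% overlap Sirt2 (1773 and 1612 reads), both on the opposite strand, and since the use of strand in counting is not given in the sources used here, its count is less certain than the others.

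Nfkbie (chr17:45555716-45563169, + strand) had 273 reads (9.94 CPM) in ctrl and 794 (27.6 CPM) in M2, a log2 fold difference of 1.47 (1.27 to 1.67). Of the 3 classical IκB genes it was the only one called, and 5.71% of the genes tested had a higher value. Its promoter window holds the single match printed above.

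Nfkbiz (chr16:55811375-55838899, - strand) encodes IκBζ, an atypical member of the IκB family that acts in the nucleus and can also help NF-κB to switch on a subset of its targets. It had 2175 reads (79.2 CPM) in ctrl and 5809 (202 CPM) in M2, the most reads of the 10 genes in that library. The log2 fold difference was 1.35 (1.28 to 1.42), and 6.49% of the genes tested had a higher value.

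Tnfaip3 (chr10:19000910-19015657, - strand) encodes a ubiquitin-editing enzyme that switches off signalling upstream of the IKK kinases. It had 312 reads (11.4 CPM) in ctrl and 1836 (63.7 CPM) in M2, a log2 fold difference of 2.48 (2.31 to 2.67). It was the only one of the 10 genes called at 4-fold, beside 3.2% of all genes, and 409 of the genes tested (2.13%) had a higher value. Its ratio to Rela was 0.131 in ctrl beside 0.892 in M2 (log2 change 2.76, 2.57 to 2.96).

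**Figure D3:**
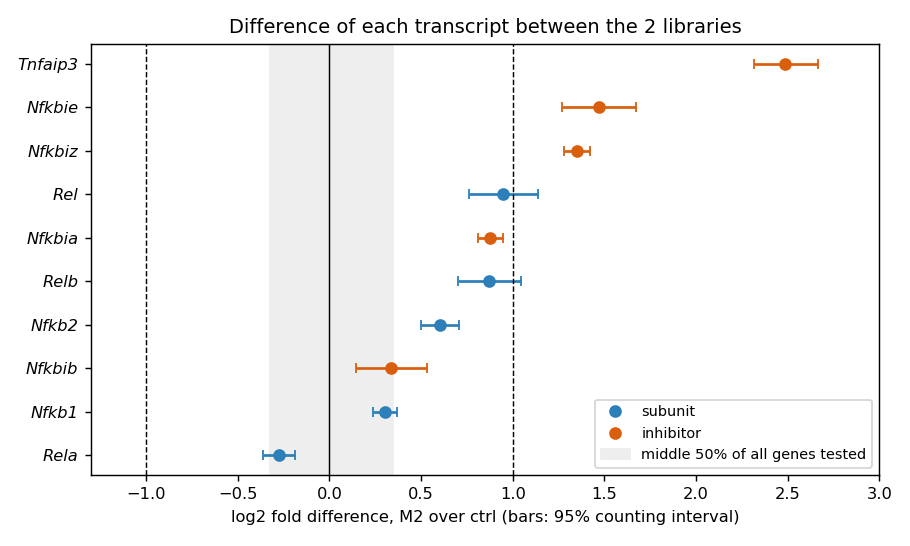
Log2 fold difference of M2 over ctrl for each of the 10 genes with its 95% counting interval, beside the quartiles of all genes tested and the 2-fold threshold. Tnfaip3 at 2.48, Nfkbie at 1.47 and Nfkbiz at 1.35 lie past the threshold, the intervals of Rel and Relb reach over it, and Rela lies below 0.

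Placed in order of their difference, the genes ran from Tnfaip3 through Nfkbie, Nfkbiz, Rel, Nfkbia, Relb, Nfkb2, Nfkbib and Nfkb1 to Rela. Tnfaip3 stood above Nfkbie by 1.02 on the log2 scale (95% exact interval 0.75 to 1.29), and Nfkb1 stood above Rela by 0.58 (0.47 to 0.69). Nfkbie and Nfkbiz were not separated (0.12, -0.09 to 0.34). Nor were Rel and Nfkbia (0.07, -0.13 to 0.27), Nfkbia and Relb (0.0036, -0.18 to 0.19), or Nfkbib and Nfkb1 (0.04, -0.17 to 0.24). The steps from Nfkbiz to Rel (0.40), from Relb to Nfkb2 (0.27) and from Nfkb2 to Nfkbib (0.27) had intervals above 0.

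Taken as sums, the reads of the 5 inhibitors came to 5748 in ctrl and 13961 in M2, those of the 5 subunits to 7592 and 9713. The ratio of inhibitor to subunit reads was thus 0.757 in ctrl beside 1.44 in M2 (log2 change 0.92, 0.86 to 0.99). Nfkbiz and Nfkbia gave most of the inhibitor reads, and Nfkbiz can also activate. Without Nfkbiz the log2 change was 0.83, without Nfkbia 1.15, without both 1.34, and for the classical IκB genes Nfkbia, Nfkbib and Nfkbie alone 0.60. The ratio was higher in M2 in each of these sums, which were added after the values had been seen.

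Levels of different genes were compared as CPM per kb, either of the exon length that the table lists or of the longest coding transcript in GENCODE M21. By both lengths Nfkbia had the highest level of the 10 genes in both libraries, 60.0 CPM per kb in ctrl and 110 CPM per kb in M2. Rela came next in ctrl, at 31.8 CPM per kb. In M2 it had 26.3 CPM per kb and stood at rank 3 by exon length and rank 4 by transcript length. Nfkbiz, at 15.8 CPM per kb of exons in ctrl and 40.2 in M2, came to rank 2 by both lengths. Tnfaip3 had 1.57 CPM per kb of exons in ctrl and 8.82 in M2, which is rank 10 and rank 7, or rank 9 and rank 6 by transcript length.

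Rela therefore took a smaller share of the subunit mRNA per kb in M2. By exon length its share was 52.3% in ctrl and 37.8% in M2, while Nfkb2 took 22.3% and 29.6%, Nfkb1 15.9% and 17.2%, Relb 6.63% and 10.6%, and Rel 2.85% and 4.80%. By transcript length the share of Rela was 39.5% and 27.6%, and Nfkb1, whose listed exons span 12061 bases against 4117 in its transcript, took 35.2% and 36.8%. Which subunit gene had the highest level in M2 thus depends on the length used, Rela by exon length and Nfkb1 by transcript length, whereas the lower share of Rela in M2 does not. Among the inhibitors Nfkbia kept the largest share, 68.2% in ctrl and 61.6% in M2 by exon length. Nfkbiz took 17.9% and 22.5%, Tnfaip3 1.79% and 4.93%, Nfkbie 4.66% and 6.36%, and Nfkbib 7.40% and 4.61%.

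**Figure D4:**
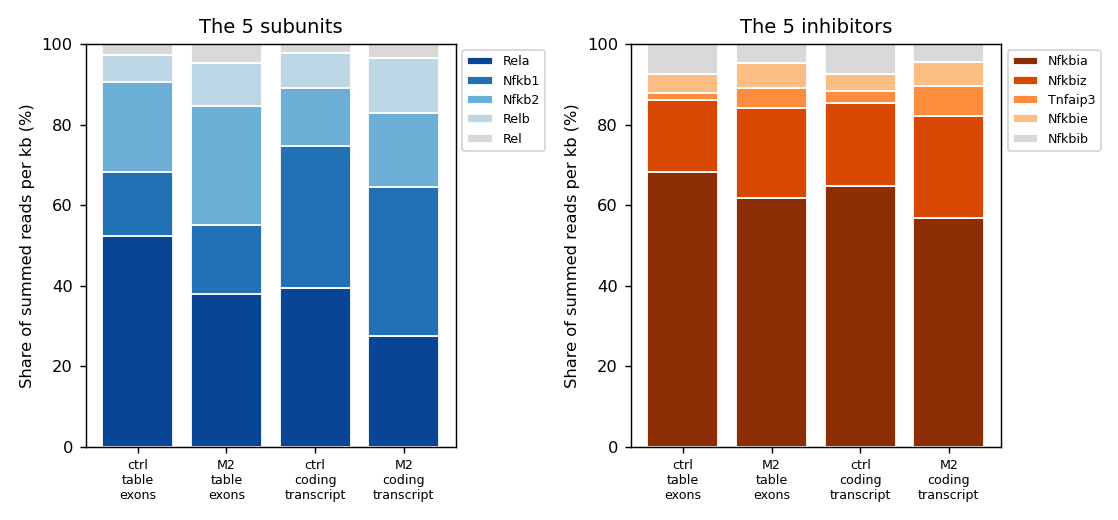
Share of each gene in the summed reads per kb of the 5 subunits (left) and the 5 inhibitors (right), in %, in ctrl and M2, by the exon length of the table and by coding transcript length. The share of Rela is smaller in M2 by both lengths, and Nfkbia holds the largest inhibitor share in all 4 bars.

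The rest of the pathway was read from lists of genes that work beside these 10. Over all genes tested, 8.16% were called higher and 6.55% lower, the shares to set beside each count. Of the other IκB family genes, 2 of 3 were called higher and 0 lower. Bcl3, a nuclear IκB protein that joins the Nfkb1 and Nfkb2 products on DNA, had 242 reads in ctrl and 640 in M2 (log2 fold difference 1.33, 1.12 to 1.55). Nfkbid, another nuclear IκB protein, had 25 and 78 reads (1.53, 0.91 to 2.28), and Nfkbil1 was not called (0.29). At an assumed coefficient of variation of 0.4 between cultures, 0 of these 3 were called.

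Upstream of the inhibitors, 1 of 10 genes for IKK and TAK1 kinases and their partner proteins was called higher and 0 lower, beside 8.16% and 6.55% of all genes. The list median was 0.08. The called gene was Ikbke, a kinase related to the IKKs, with 336 reads in ctrl and 1191 in M2 (log2 fold difference 1.75, 1.58 to 1.94). The subunits of the IKK complex itself were not called: Chuk had -0.07, Ikbkb -0.04 and Ikbkg -0.17. Tab2 (0.13) and Map3k7 (0.04), which act above IKK, were not called. Of 10 genes for linear ubiquitin and adaptors, 0 were called in either direction by the exact binomial test, with a median of -0.13 and values of -0.01 for Ripk1 and -0.25 for Rbck1.

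In the alternative arm 4 of 14 genes were called higher and 0 lower, beside 8.16% and 6.55% of all genes, with a median of -0.02. Scaling by total reads gave 3 higher and 1 lower, the latter Tnfrsf13c, a receptor with 13 and 4 reads (-1.55, -3.84 to -0.08), and an assumed variation of 0.2 gave 2 higher. Cd40, a receptor that feeds this arm, had 9 reads in ctrl and 82 in M2 (log2 fold difference 2.98, 2.12 to 4.30). Birc3 and Traf3, which both belong to the complex that keeps this arm off, had 282 and 992 reads (1.74, 1.55 to 1.94) and 796 and 1688 reads (1.01, 0.89 to 1.14). Traf3 lies on the threshold and was not called when libraries were scaled by total reads (0.96). Ltb, a ligand, had 3 and 14 reads, and its log2 interval ran from 0.31 to 4.59. Tnfrsf12a (0.31) and Ltbr (-0.27), both receptors, were not called.

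Of 14 other negative regulators, 4 were called higher and 1 lower, beside 8.16% and 6.55% of all genes, with a median of 0.14. Zc3h12a, a ribonuclease that degrades inflammatory mRNAs, had 380 reads in ctrl and 5357 in M2 (log2 fold difference 3.74, 3.60 to 3.90). Irak3, which blocks signalling from IL-1 and Toll-like receptors, had 265 and 2216 reads (2.99, 2.81 to 3.18). Tnip1 and Tnip3, which bind the Tnfaip3 protein, had 1198 and 3418 reads (1.44) and 17 and 805 reads (5.42). The gene called lower was Pdlim2, which promotes the breakdown of the Rela protein, with 555 and 214 reads (-1.44, -1.68 to -1.21). Tax1bp1 (0.39) and Sqstm1 (0.25) were not called.

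Among 36 genes known as NF-κB targets, 34 were tested. Of these, 24 were called higher and 0 lower, beside 8.16% and 6.55% of all genes tested. Their median was 1.77, or 1.71 when the 5 genes at 3 or fewer reads in ctrl were set to the bound of their interval. Some targets passed the filter only through their reads in M2. When each library had to reach 1 CPM, 24 targets were left, of which 14 were called higher, and the median was 1.17. Under that filter 797 of all 14590 genes were called higher. Lcn2, which binds iron carriers of bacteria, had 12343 reads in ctrl and 76343 in M2 (log2 fold difference 2.56). The complement gene C3 had 666 and 24213 reads (5.11). The chemokine genes Cxcl1 and Cxcl5 had 6471 and 32661 reads (2.27) and 190 and 16152 reads (6.33). Sod2 (1.76), Lif (1.81), Plau (1.33) and Ptgs2 (1.02) were also called, the last of them at the threshold and not under scaling by total reads (0.96). Csf1 (0.44) and Ier3 (-0.14) were not called. Of the 26 target genes with a promoter window, 11 held a match to the κB consensus. Among these 11, Csf1, Irf1, Bcl2l1 and Ier3 were not called higher. The share was 12.4% of all tested genes with a window and 16.3% of those called higher. Because the list was made of known NF-κB targets, no conclusion is drawn from its count beside these shares. Here too, genes with several start sites have more sequence searched. Many of these genes also respond to other factors, whose part in these differences was not tested. Of 17 other inflammatory transcription factor genes tested, 0 were called higher and 1 lower at 2-fold. At 1.5-fold 2 were called higher and 1 lower, beside 12.8% and 11.1% of all genes. The lower one was Stat5a with 2186 and 1091 reads (-1.07). Irf1 (0.93, also in the target list) and Stat3 (0.58) were not called at 2-fold. These mRNA counts do not measure how active a factor was.

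**Figure D5:**
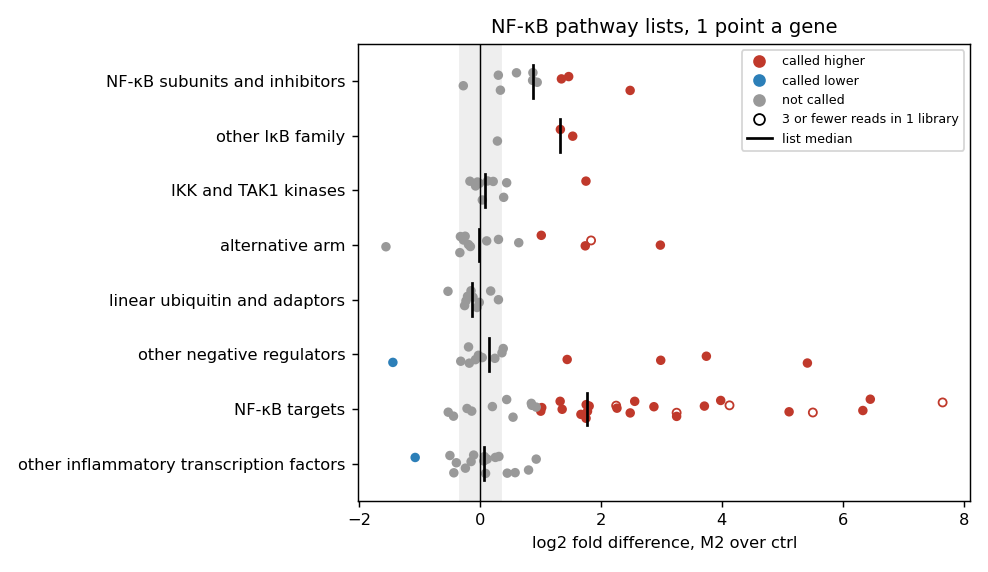
Log2 fold difference of M2 over ctrl for the genes of each pathway list, 1 point a gene, with the list median as a bar, the quartiles of all genes as a band, and open points for genes at 3 or fewer reads in a library, whose plotted difference is no bound. Points called higher number 24 of 34 among the targets, 1 of 10 among the IKK and TAK1 kinases with their partner proteins, and 0 of 10 among the adaptors. Among all genes tested, 8.16% were called higher.

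The calls depend on how much cultures of one kind vary, which these libraries cannot show. When a biological coefficient of variation was assumed in the exactTest of edgeR, Tnfaip3, Nfkbie and Nfkbiz were called at 0.1 and at 0.2, beside 7.31% and 5.01% of all genes called higher. At 0.4, 0 of the 10 genes were called, beside 0.91% of all genes, and only Tnfaip3 had an unadjusted p under 0.05. At 0.4, 9 of the 34 targets and 2 of the 14 negative regulators were still called higher.

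Markers of the labelled cell type, basal cells, were present, and so were luminal markers. In colonies grown from sorted basal cells, alone or with macrophages, the paper's flow cytometry found mostly luminal cells. The values here are thus of mixed cultures and not of basal cells only. Of 7 basal markers 0 were called higher and 1 lower (Oxtr, -2.18), and their summed level was 7644 CPM in ctrl and 7596 CPM in M2. That sum held differences in both directions, with Krt5 at 0.50 and Krt14 at -0.32, and 3 of the 7 were above 0. Of 11 luminal markers 0 were called higher and 6 lower, beside 8.16% and 6.55% of all genes. The 6 were Elf5, Kit, Esr1, Pgr, Prlr and Foxa1. Not called were Krt8 (0.21), Epcam (0.06), Krt18 (-0.05), Gata3 (-0.11) and Krt19 (-0.78). The summed level of the 11 was 4142 CPM in ctrl and 3333 CPM in M2. In bulk samples, fewer cells of a type and less RNA per cell cannot be told apart. The part of these marker differences in the differences further above was not tested. Of 18 macrophage markers, 7 were at 0 reads in both libraries, among them Adgre1, Ptprc and Tyrobp, where 3 reads would be 0.109 CPM in ctrl and 0.104 CPM in M2. Without Arg1 (1507 and 2090 reads), the other 17 had 277 reads in ctrl and 346 in M2. Csf1r (94 and 92 reads) and Cd68 (170 and 165 reads) gave most of these, so the sum says little about the rest. Of the 6 macrophage markers tested, Cd163 (2 and 30 reads) and Aif1 (3 and 40 reads) were called higher, beside 8.16% of all genes. Of 6 fibroblast markers 1 was called higher (Dcn, 51 and 157 reads) and 2 lower (Col1a2 and Col3a1). The shares of all genes were 8.16% and 6.55%, here and for the endothelial markers. The fibroblast markers summed to 8800 reads in ctrl, 3812 in M2. Of 3 endothelial markers Pecam1 was called higher (33 and 76 reads) and Cdh5 (11 and 2) and Kdr (11 and 0) lower. The 6 lymphocyte markers summed to 8 and 21 reads. The part of these cells in the differences above was not tested.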

How the data were processed

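RNA of cultures grown from basal cells, alone (ctrl, 1 library) or with macrophages (M2, 1 library), was sequenced, per the labels and the study's methods. The authors deposited 1 table of raw, unnormalized read counts per gene, which also lists exon positions and lengths. The submitters' processing notes name GRCm38 and mm10; the aligner, counting tool and use of strand are not given in the sources used here. The labels name a column kit for the extraction and the methods a lysis reagent, and the series text speaks of a microarray although the values are sequencing counts. Of the 10 genes, 7 have the same start and end in GENCODE M21 and all overlap the gene of that name there.

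Genes with at least 10 reads summed were compared by exact binomial tests (two-sided) on edgeR 4.0.16 TMM library sizes (R 4.3.3, factors 1.02 for ctrl and 0.980 for M2; SciPy 1.17.1), with Benjamini-Hochberg adjustment and a pseudocount of 1 read for fold differences. Ratios of genes have exact conditional 95% intervals. Reads carry no molecular identifiers as far as stated, so intervals and the floor of 3 reads cover counting error only. The binomial function was tested on simulated data. Alternatives changed the scaling, pseudocount, filter, fold threshold, gene length and assumed variation.

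The members and lists were chosen with earlier results of these data known, so their counts are descriptions. Named genes are all 10 members and, from each further list, the called genes (the 8 with the most reads where more were called) plus the 2 with the most reads that were not called; the IKK subunits and the marker genes were named after their values were seen, and 1 gene that this rule names is not reported here. Other libraries of the study were not analysed here.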

Additional observations from a re-analysis of the deposited data

How the results depend on the processing

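With 1 library in each group, the spread between cultures is unknown, and depth limits only the genes with few reads, such as Ltb. No value reversed, but filters, thresholds and exactTest leave a fold difference as it is and a scaling shifts all genes alike, so this is no test of stability. Under the 4 other scalings, 2 other pseudocounts and 2 other filters, Tnfaip3, Nfkbie and Nfkbiz were called each time. Assuming a coefficient of variation of 0.4 in exactTest lost the calls of Tnfaip3 (2.48), Nfkbie (1.47) and Nfkbiz (1.35), so that 0 genes were called. A 1.5-fold threshold added Nfkb2 (0.60), Relb (0.87), Rel (0.95) and Nfkbia (0.88), giving 7 genes higher, and a 4-fold threshold left 1, without Nfkbie (1.47) and Nfkbiz (1.35). The log2 change of the inhibitor to subunit ratio was 0.83, 1.15, 1.34 and 0.60 in sums that, like the transcript lengths, were added after seeing the data, beside 0.92 in full. The share of Rela among the subunits changed by -14.5 points by exon length, -10.1 with no length and -11.9 by transcript length, and that of Nfkbia among the inhibitors by -6.59, -9.37 and -7.78. For all genes tested, the calls higher and lower were 1570 and 1260, 797 and 583 with at least 1 CPM in both libraries, 964 and 691 at an assumed variation of 0.2, 175 and 130 at 0.4, 2462 and 2143 at 1.5-fold, and 616 and 494 at 4-fold. The median of all genes moved to -0.06 under total reads and -0.07 without mitochondrial genes. No paired analysis was possible because there is 1 library for each condition and so nothing to block on.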
